A study of Homo sapiens with 4 samples.

Results

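NRF2 (gene NFE2L2) and BACH1 are transcription factors that compete, each paired with a small MAF protein, for antioxidant response elements in the promoters and enhancers of stress genes. KEAP1 hands NRF2 to a ubiquitin ligase until electrophiles or oxidants modify it, whereas BACH1 represses the same elements until heme binds it and it is removed. The pathway is largely set at the level of protein, so that mRNA of the regulators and mRNA of their targets are separate readouts. In K562 cells treated with hemin, 5 of the 9 genes described here rose, namely NQO1, GCLM, KEAP1, TXNRD1 and BACH1, and 0 fell. Of all tested genes, 7.00% were called higher and 7.14% lower. The 9 genes were chosen with earlier results of these data known. BACH1 was close to the threshold and was not called by DESeq2 (adjusted p = 0.179). The increases were moderate, the largest being 1.65-fold for NQO1 and 1.63-fold for GCLM. The transcripts of NFE2L2, GCLC, SLC7A11 and SRXN1 did not pass the test. In bulk RNA, a change in the share of cells that express a gene and a change in RNA per cell cannot be told apart.

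The 9 genes are the regulators NFE2L2, BACH1 and KEAP1 and the targets NQO1, GCLC, GCLM, SLC7A11, TXNRD1 and SRXN1. They were matched by symbol to the gene names that accompany the deposited TPM values, and each symbol had 1 identifier among the 61498 genes. The cells were K562, a human erythroleukemia line that makes embryonic and fetal globins and accumulates hemoglobin when given hemin, the iron protoporphyrin of hemoglobin. Poly(A) RNA was sequenced in 2 untreated libraries and in 2 libraries from cells kept in 50 µM hemin for 108 h. Both groups share a single line, and a single treatment time is available. No time in culture is given for the untreated libraries, so hemin and time in culture cannot be told apart. The expected counts summed to between 7455447 and 8241534 per library, of which 12.8% to 13.6% lay on mitochondrial genes. The labels number the replicates without saying that they came from separate cultures, and p-values here measure the spread between these libraries only, which may be technical. All 10 markers of erythroid cells and of K562 were detected, with at least 299 counts in every library. Markers of other blood lineages were near 0, with at most 14 counts for B cell, 6 for T cell and 3 for monocyte genes in any library. The summed TPM of 5 fibroblast markers was 6.51 and 8.90 in untreated cells against 5.24 and 5.69 after hemin, beside 5564 to 7137 for the erythroid list, and the part of these low signals in the results was not tested.

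The antioxidant response element was searched for in the promoters of these genes, because it is the sequence that NRF2 and BACH1 share. Promoter windows run from 250 bases before to 50 bases after a start site (RefSeq, GRCh38.p14), and 13 windows were found for 8 of the 9 genes, SLC7A11 having no entry. The core TGACNNNGC, read on both strands, was present in 4 of these 13 windows, belonging to GCLM, KEAP1 and TXNRD1, against 13.4% of all 35116 windows. The shorter core TGACTCA, bound by NF-E2 and AP-1 factors, was present in 1 of the 13 windows, that of BACH1, against 4.95% of all windows. TGACTCA followed directly by GC would count for both cores. Each match is shown on its gene's strand with 10 bases on either side, and capitals mark the core or its reverse complement.
GCLM, chr1:93909446-93909474, minus strand: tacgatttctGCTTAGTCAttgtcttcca
KEAP1 first match, chr19:10502807-10502835, minus strand: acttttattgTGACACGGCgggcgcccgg
KEAP1 second match, chr19:10502784-10502812, minus strand: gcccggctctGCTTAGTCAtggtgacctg
TXNRD1 first match, chr12:104215670-104215698, plus strand: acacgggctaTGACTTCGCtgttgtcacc
TXNRD1 second match, chr12:104215761-104215789, plus strand: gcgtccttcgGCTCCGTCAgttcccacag
TXNRD1 other start site, chr12:104286920-104286948, plus strand: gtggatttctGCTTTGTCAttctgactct
BACH1, chr21:29298864-29298890, plus strand: gcggaaggagTGAGTCAcctgaccgct
The GCLM element and the second KEAP1 element carried the same 9 bases, GCTTAGTCA, which begin 34 bases before the GCLM start and 31 bases before the KEAP1 start. No match to TGACNNNGC was found in the windows of NQO1, GCLC, SRXN1, NFE2L2 or BACH1, which says only that these letters are not in those 300 bases. The matches describe the sequence and are not sites of measured binding.

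**Figure D1:**
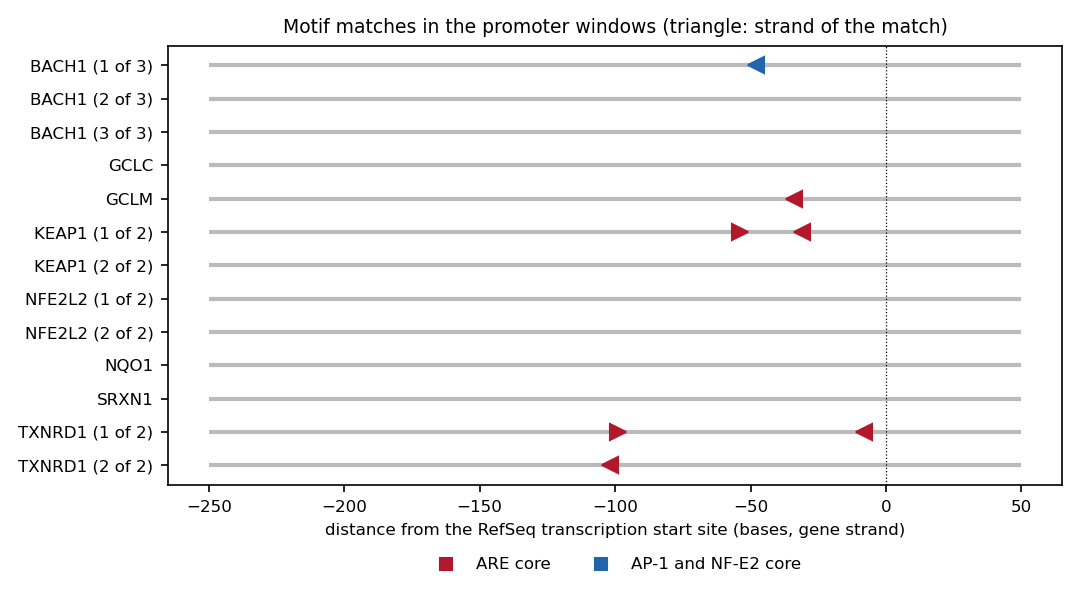
Positions of the 2 searched cores in the 13 promoter windows of 8 genes, as the distance in bases from the annotated start site (x axis) for each window (y axis), with triangles pointing along the strand of the match. Matches to TGACNNNGC lie in windows of GCLM, KEAP1 and TXNRD1, and the match to TGACTCA lies in a window of BACH1.

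All 9 genes passed the filter on low counts, and 5 were called higher after hemin at an adjusted p under 0.05 (edgeR quasi-likelihood test, Benjamini-Hochberg over 14458 genes), where 7.00% of all tested genes were called higher and 7.14% lower. None of the 9 was called lower by edgeR, none was lower at an unadjusted p under 0.05 (0 genes), and DESeq2 called 0 lower. The fitted difference was positive for all 9, with a median of 0.21 on the log2 scale against -0.0048 over all tested genes. In 6 of the 9, the CPM of both hemin libraries lay above both untreated libraries, which held for 28.1% of all genes. DESeq2 called 4 of the 9 higher (KEAP1, NQO1, GCLM and TXNRD1), against 4.55% of the genes to which it gave an adjusted p. With the authors' TPM and limma, 0 of the 9 passed the adjusted threshold and 3 had an unadjusted p under 0.05. Scaled by library size alone, without TMM, the table of all genes held 729 higher and 1358 lower calls in place of 1012 and 1033, and its median moved to -0.04.

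**Figure D2:**
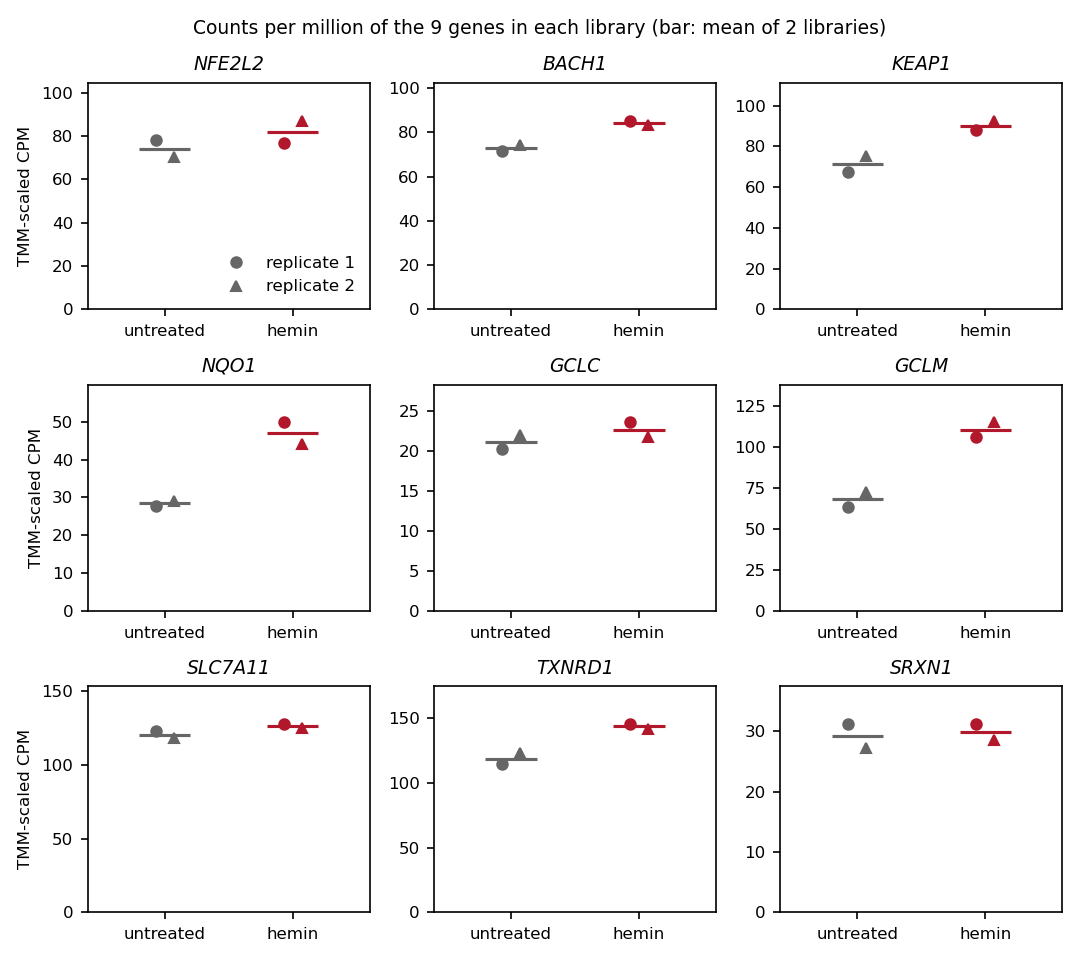
CPM of the 9 genes scaled by TMM (y axes, each from 0) in the untreated and hemin-treated libraries (x axis), with circles and triangles for replicates 1 and 2 and a bar at the mean of 2 libraries. The hemin libraries of NQO1, GCLM, KEAP1, TXNRD1, BACH1 and SLC7A11 lie above both untreated libraries, whereas those of NFE2L2, GCLC and SRXN1 overlap with them.

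NQO1 (ENSG00000181019, chr16:69706996-69726668, minus strand) encodes the quinone reductase that is the classic readout of NRF2 activity. It stood at 27.8 and 29.1 CPM in untreated cells and at 49.9 and 44.3 CPM after hemin. The groups were far apart relative to the spread within them, and the increase was 0.72 ± 0.090 on the log2 scale (SE, n = 2 per group, edgeR adjusted p = 0.00133, 95% interval 0.52 to 0.93). The reads behind it were 220 and 218 counts before and 370 and 357 after, a pooled ratio of 1.61 with a counting interval of 1.43 to 1.81. In TPM, which corrects for transcript length, the level went from 32.6 ± 3.74 to 57.2 ± 6.28 (SD, n = 2). NQO1 shares 19.4% of its exon bases with an overlapping gene, ENSG00000261602, that had at most 3 counts in any library.

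GCLM and GCLC encode the modifier and the catalytic subunit of glutamate-cysteine ligase, the rate-limiting enzyme of glutathione synthesis. GCLM (ENSG00000023909, chr1:93885199-93909456, minus strand), whose promoter window holds the element shown above, had 63.5 and 72.8 CPM in untreated cells and 105.98 and 115.15 CPM after hemin. Both treated libraries were well above both controls, and GCLM rose by 0.70 ± 0.075 (log2, SE, edgeR adjusted p = 6.67e-04, 95% interval 0.53 to 0.87). GCLC (ENSG00000001084, chr6:53497341-53616970, minus strand) had 20.2 and 22.0 CPM before and 23.6 and 21.7 CPM after, and the groups overlapped. Its difference of 0.10 did not pass (edgeR adjusted p = 0.593), and the 95% interval of -0.14 to 0.34 does not reach the lower bound of GCLM. The ratio of GCLM to GCLC counts was 3.14 and 3.30 in untreated libraries and 4.49 and 5.31 in treated ones. These ratios did not overlap between groups, but an exact two-sided permutation test of 2 against 2 libraries cannot give a p below 0.333. The ratio of their TPM was 2.41 and 2.97 before and 2.65 and 4.35 after, and here the groups overlapped.

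The size of the GCLM increase differed between the scales. In TPM, GCLM went from 35.7 ± 5.40 to 48.3 ± 5.41 (SD, n = 2), a difference of 0.43 on the log2(TPM + 1) scale against 0.70 in counts. The effective length that RSEM assigned to the gene, a mean over its isoforms, was 2802 and 2546 bases in untreated libraries and 3272 and 3002 bases in hemin libraries. The longer estimate lowers TPM for a given count, and whether isoform use itself changed was not tested.

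TXNRD1 and SRXN1 encode thioredoxin reductase, which regenerates reduced thioredoxin, and sulfiredoxin, which repairs overoxidized peroxiredoxins. TXNRD1 (ENSG00000198431, chr12:104215779-104350307, plus strand), with 3 matches to the element in 2 of its windows, had 115 and 123 CPM in untreated cells and 146 and 142 CPM after hemin. The treated libraries were close to each other and above both controls, with an increase of 0.27 ± 0.053 (log2, SE, edgeR adjusted p = 0.0101). TXNRD1 was not called when untreated replicate 1 was left out (0.22, adjusted p = 0.0658). SRXN1 (ENSG00000271303, chr20:646615-653200, minus strand) had 31.2 and 27.2 CPM before and 31.1 and 28.5 CPM after, almost the same range. The annotation places 90.7% of its exon bases in a second gene on the same strand, ENSG00000270299, to which RSEM gave 0 counts in each of the 4 libraries, and the posterior SD of the SRXN1 count, summed over libraries, was 2.15% of the count. Its difference of 0.03 had a 95% interval of -0.20 to 0.25, and its sign turned to -0.01 with library size alone and to -6e-04 on the log2(TPM + 1) scale.

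SLC7A11 encodes the cystine-importing subunit of the xCT antiporter, and it answers to both NRF2 and the amino acid stress factor ATF4. SLC7A11 (ENSG00000151012, chr4:138164097-138242349, minus strand) had 123 and 118 CPM in untreated cells and 128 and 125 CPM after hemin. Both treated libraries were higher, but by little, and the difference of 0.07 ± 0.050 did not pass (log2, SE, edgeR adjusted p = 0.402, 95% interval -0.04 to 0.18). With 885 to 1009 counts per library, it was with TXNRD1 the most deeply counted of the 9 genes, and the upper bound corresponds to 1.13-fold.

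**Figure D3:**
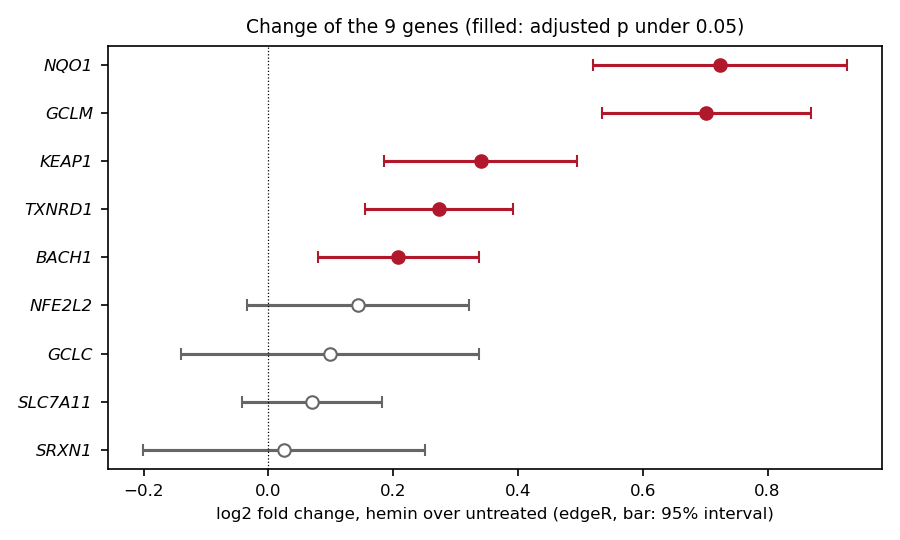
Log2 fold change after hemin for each of the 9 genes (edgeR, counts), with bars for the 95% interval and 0 marking no difference. NQO1 at 0.72 and GCLM at 0.70 lie apart from the others, KEAP1, TXNRD1 and BACH1 have intervals above 0, and the intervals of NFE2L2, GCLC, SLC7A11 and SRXN1 include 0.

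Among the regulators, KEAP1 (ENSG00000079999, chr19:10486125-10503558, minus strand), the adaptor that directs NRF2 to degradation, had 67.4 and 75.4 CPM in untreated cells and 87.9 and 92.6 CPM after hemin. The groups did not overlap, and KEAP1 rose by 0.34 ± 0.069 (log2, SE, edgeR adjusted p = 0.0121, 95% interval 0.19 to 0.49). Without untreated replicate 1, the value was 0.26 with an adjusted p of 0.0768. NFE2L2 (ENSG00000116044, chr2:177218667-177392756, minus strand) had 78.1 and 70.1 CPM before and 76.6 and 87.0 CPM after. These ranges overlapped, and the difference of 0.14 ± 0.079 did not pass (edgeR adjusted p = 0.271, 95% interval -0.03 to 0.32). The difference was 0.046 without hemin replicate 2 and 0.24 without hemin replicate 1, and neither passed. In TPM the sign turned, from 56.0 ± 0.933 to 53.7 ± 2.87 (SD, n = 2), and the effective length of NFE2L2 was 1992 and 1714 bases in untreated and 2036 and 2124 bases in hemin libraries.

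The annotation places 23.4% of the exon bases of NFE2L2 over HNRNPA3 on the opposite strand. This share is of 14975 bases merged over all annotated isoforms, far more than the effective length of NFE2L2 given above. The RSEM options given name no strand setting, so that reads of the shared bases cannot be told apart by strand. HNRNPA3, an RNA-binding protein, had 4703 and 4414 counts in untreated and 5560 and 5880 counts in hemin libraries (log2 0.32, edgeR adjusted p = 0.00114), against 525 to 702 counts for NFE2L2. A gene on the same strand, ENSG00000213963, shares 13.6% of the merged NFE2L2 exon bases and had 45 to 77 counts per library. The posterior SD of the NFE2L2 count, summed over libraries, was 0.53% of the count. The part of reads from either overlapping gene in the NFE2L2 values was not tested.

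BACH1 (ENSG00000156273, chr21:29194071-29630751, plus strand), the heme-binding repressor, had 71.7 and 74.2 CPM in untreated cells and 85.2 and 83.4 CPM after hemin. The libraries of each group were close, and the increase was 0.21 ± 0.058 (log2, SE, edgeR adjusted p = 0.0414, 95% interval 0.08 to 0.34). It was the nearest to the threshold of the 5 increases, and was lost with DESeq2 (0.22, adjusted p = 0.179) and whichever library was left out (0.18 to 0.24, adjusted p 0.0904 to 0.171). The TPM of BACH1 was 25.5 ± 2.95 before and 28.9 ± 0.926 after (SD, n = 2).

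On the TPM scale, which allows levels to be compared between genes, TXNRD1 was the highest of the 9 in both groups, at 59.0 ± 0.849 in untreated and 69.3 ± 4.79 in treated cells (SD, n = 2). In untreated cells it was followed by NFE2L2, KEAP1, GCLM, NQO1, BACH1, SLC7A11, SRXN1 and GCLC, and among these neighbours only GCLM and NQO1 overlapped in range. After hemin, KEAP1 at 58.4 ± 2.29 and NQO1 at 57.2 ± 6.28 came next and overlapped, as did NQO1 with NFE2L2 and NFE2L2 with GCLM. The lowest of the 9 were SLC7A11 (19.2 ± 1.22), SRXN1 (16.4 ± 1.15) and GCLC (14.4 ± 3.39), the last of which overlapped with SRXN1. The TPM ratio of NFE2L2 to its adaptor KEAP1 was 1.27 and 1.05 in untreated libraries and 0.910 and 0.929 after hemin, without overlap, whereas the ratio in counts overlapped (1.16 and 0.929 before, 0.871 and 0.940 after). The TPM ratio of NFE2L2 to BACH1 was 2.01 and 2.42 before and 1.75 and 1.98 after, whereas the ratio in counts overlapped (1.09 and 0.944 before, 0.899 and 1.04 after). These are mRNA ratios and do not measure protein.

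A wider list of 48 genes known as NRF2 or BACH1 targets was examined, of which 38 passed the filter on low counts. Of these, 6 rose, 3 fell and 29 did not pass, and the median was 0.0043 on the log2 scale. Thus 15.8% were higher and 7.89% lower, beside 7.00% and 7.14% of all genes. HMOX1, the heme oxygenase that is the textbook target of BACH1, was among the 10 that did not pass the filter, with 0 and 1 counts in untreated and 2 and 1 counts in hemin libraries. Since a count of 0 allows up to 3 counts, no fold is given for HMOX1.

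Both ferritin subunits, which store iron, rose. FTH1, the largest of the 6 increases, went from 2217 and 2268 CPM to 4012 and 3979 CPM (log2 0.83 ± 0.034, SE, edgeR adjusted p = 1.4e-05), and FTL from 1940 and 1970 CPM to 2210 and 2245 CPM (log2 0.19, adjusted p = 0.00865). The fitted value of the heavy chain FTH1 was above those of the 9 genes, and that of the light chain FTL was below that of BACH1. Genes were not tested against each other. The interval of FTH1 (0.76 to 0.91) overlapped with those of NQO1 (0.52 to 0.93) and GCLM (0.53 to 0.87). It lay above those of the rest of the 9 genes, the nearest being KEAP1 (0.19 to 0.49). The interval of FTL (0.11 to 0.27) overlapped with that of BACH1 (0.08 to 0.34). These values therefore do not show whether FTH1 changed more than NQO1 or GCLM, or FTL less than BACH1. SQSTM1, the autophagy receptor p62 that binds KEAP1, went from 131 and 140 CPM to 198 and 189 CPM (log2 0.52 ± 0.052, SE, edgeR adjusted p = 5.02e-04). On the log2(TPM + 1) scale, the SQSTM1 difference was 0.26 and did not pass. PRDX1, a peroxiredoxin, went from 260 and 275 CPM to 313 and 305 CPM (log2 0.21, edgeR adjusted p = 0.0163), and it was not called without untreated replicate 1. Its electron donor TXN had a difference of 0.09 that did not pass (edgeR adjusted p = 0.326).

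Of the 6 NADPH-generating enzymes, PGD (log2 0.24, edgeR adjusted p = 0.00806) and TKT (log2 0.14, adjusted p = 0.0425) of the pentose phosphate pathway rose and the isocitrate dehydrogenase IDH1 fell (-0.18, adjusted p = 0.0235). PGD was not called without untreated replicate 2, and TKT and IDH1 were not called whichever library was left out. BLVRB, a biliverdin reductase, went from 87.1 and 97.6 CPM to 68.6 and 65.0 CPM (log2 -0.47 ± 0.071, SE, edgeR adjusted p = 0.00377). The other listed biliverdin reductase, BLVRA, had a difference of -0.11 that did not pass (edgeR adjusted p = 0.458). TRIM16, a ubiquitin ligase linked to NRF2 stability, went from 23.6 and 28.2 CPM to 14.8 and 16.2 CPM (log2 -0.73 ± 0.12, SE, edgeR adjusted p = 0.00572). For BLVRB and TRIM16 the treated libraries lay below the untreated ones. TRIM16 has a close copy, TRIM16L, so that the division of its reads is less certain. None of 10 tested glutathione genes of this list, which holds neither GCLM nor GCLC, was called by edgeR (1 had an unadjusted p under 0.05) or by DESeq2 (0 genes). None of 8 tested carbonyl and xenobiotic enzymes was called by edgeR (2 had an unadjusted p under 0.05) or by DESeq2 (0 genes). Over all genes 7.00% were called higher and 7.14% lower, so 0 calls among so few genes do not set these 10 or 8 genes apart.

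**Figure D4:**
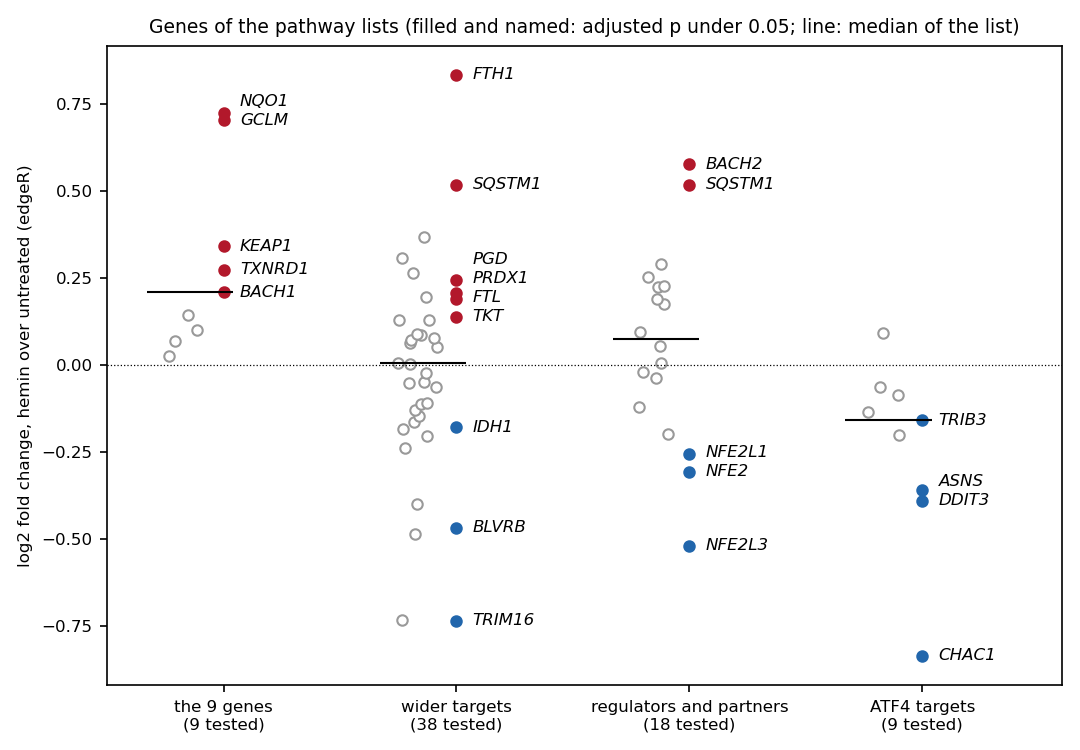
Log2 fold changes after hemin (edgeR, counts) of the 9 genes, the wider targets, the regulators and partners, and the ATF4 targets, with each point a tested gene, filled and named where the adjusted p was under 0.05, a bar at each list's median and a dotted line at 0. The medians are 0.21, 0.0043, 0.07 and -0.16, and FTH1 at 0.83 and CHAC1 at -0.83 mark the extremes.

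Of 18 relatives and partners of NRF2, 2 rose, 3 fell and 13 did not pass, with a median of 0.07. These are 11.1% higher and 16.7% lower, beside 7.00% and 7.14% of all genes, and with 18 genes these shares rest on few calls. Among the cap'n'collar factors other than NFE2L2 and BACH1, with which they share a DNA-binding domain, all 4 listed were called by edgeR. NFE2L2, of the same family, was not called (edgeR adjusted p = 0.271). BACH2, a second heme-sensitive repressor, went from 20.4 and 19.1 CPM to 28.9 and 30.0 CPM (log2 0.58 ± 0.096, SE, edgeR adjusted p = 0.00547). In TPM the BACH2 groups overlapped, with 6.39 and 3.68 before and 5.58 and 6.53 after, and the difference on the log2(TPM + 1) scale was 0.26 and did not pass. In contrast, NFE2L1 (-0.26, edgeR adjusted p = 0.0128), the erythroid and megakaryocyte factor NFE2 (-0.31, adjusted p = 0.0185) and NFE2L3 (-0.52, adjusted p = 0.0269) fell. NFE2L3 stood at 20.6 and 23.4 CPM before and 16.6 and 14.1 CPM after hemin. Without hemin replicate 2 none of these 3 decreases was called (0 genes), and without untreated replicate 2 only that of NFE2L1 was. NFE2L1 was also not called without untreated replicate 1, and DESeq2 called neither NFE2 (adjusted p = 0.0684) nor NFE2L3 (adjusted p = 0.129). The small MAF partners MAFF, MAFG and MAFK were not called by edgeR or DESeq2, and 0 of the 3 had an unadjusted p under 0.05. CUL3, the scaffold of the ligase that KEAP1 serves, had a difference of 0.17 that did not pass (edgeR adjusted p = 0.0827), and RBX1, its RING subunit, one of 0.05. The other KEAP1-binding proteins besides SQSTM1, namely DPP3, PALB2 and PGAM5, had positive differences between 0.23 and 0.29 that did not pass. Their edgeR adjusted p-values were 0.0637, 0.139 and 0.0515, that of PGAM5 being close to the threshold.

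Because SLC7A11 is also a target of ATF4, 9 genes of the ATF4 response were listed beside it. None rose by edgeR or DESeq2 (0 genes, with 1 at an unadjusted p under 0.05, ATF4 itself), and 4 fell, with a median of -0.16. Over all genes 7.00% were called higher and 7.14% lower. CHAC1, which degrades glutathione, went from 35.9 and 36.5 CPM to 20.1 and 20.5 CPM (log2 -0.83 ± 0.088, SE, edgeR adjusted p = 6.67e-04). ASNS, the asparagine synthetase, went from 685 and 715 CPM to 545 and 547 CPM (log2 -0.36, edgeR adjusted p = 8.02e-04). In both cases the replicates of a group were close. The stress factors DDIT3 (-0.39, edgeR adjusted p = 0.0247) and TRIB3 (-0.16, adjusted p = 0.0419) also fell, but neither was called by DESeq2. TRIB3 was not called whichever library was left out or with the replicate block, and DDIT3 was not called without untreated replicate 1, untreated replicate 2 or hemin replicate 2. SLC3A2, the heavy chain that pairs with SLC7A11, had 269 and 274 CPM before and 260 and 260 CPM after, a difference that did not pass (log2 -0.06, edgeR adjusted p = 0.357).

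The genes whose values ran closest to each of the 9 were found by the distance between log2 CPM over the 4 libraries, each gene centred on its own mean, among 8814 genes with a mean count of at least 100. NQO1 was nearest to BEND3 (0.07), and GCLM to FMC1-LUC7L2 (0.08) and CLN3 (0.0995). These distances were larger than those of the other 7 genes, whose nearest neighbours lay between 0.0059 and 0.023. KEAP1 was nearest to TEX10 and RPIA, TXNRD1 to DDX39A and OTUD6B, and BACH1 to DDX5 and GPX4. NFE2L2 was nearest to YLPM1 and NPAT, SLC7A11 to MPRIP and TMEM259, and SRXN1 to IFT88 and MAU2. With 4 libraries in 2 groups, many genes share such a pattern.

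**Figure D5:**
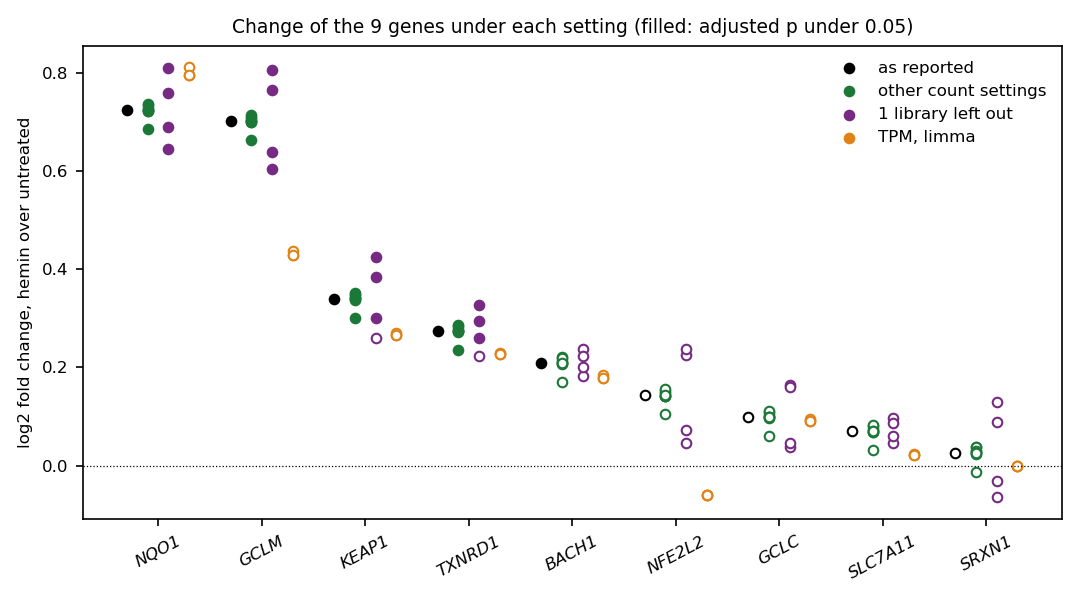
Log2 fold change after hemin (y axis) of each of the 9 genes (x axis) as reported and under 15 alternative settings, coloured by kind of setting, with filled points where the adjusted p was under 0.05. NQO1 and GCLM passed in 12 of the 15 alternatives and BACH1 in 5, and the points of NFE2L2 and SRXN1 lie on both sides of 0.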

How the data were processed

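Poly(A) RNA of 2 untreated and 2 hemin-treated K562 libraries was sequenced in reads of 50 bases. Per the submitters' processing notes and the study's methods, reads were trimmed with Trimmomatic 0.39 and quantified with RSEM 1.3.1 and STAR 2.7.5c on the Ensembl 106 annotation of GRCh38. The deposited expected counts, which the authors made with RSEM, estimate how many reads each gene received, with a read that fits several genes shared out among them. The deposited TPM are relative transcript abundances that the authors corrected for effective length. The deposited effective lengths (in bases) and posterior SDs of the counts were kept as scores that describe each estimate, and the deposited FPKM were not used here.

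After rounding, filterByExpr kept 14458 genes. These were normalised by TMM, and the groups were compared in R 4.3.3 by the quasi-likelihood test of edgeR 4.0.16. Adjusted p-values follow Benjamini and Hochberg over all genes tested, and a gene was called under 0.05. CPM are TMM-scaled, an SE is the log2 difference divided by the square root of F, and n is 2 per group throughout. The edgeR test estimates the spread of a gene partly from all tested genes. Its p-values and 95% intervals therefore rest on a median of 9.36 degrees of freedom, against 2 residual ones. Counting intervals are exact at 95% (scipy 1.17.1) and, like the floor of 3 counts for a count of 0, cover counting error only. The lists (48 wider targets, 18 regulators and partners, 9 ATF4 targets and cell type markers) were written from general knowledge, and the 9 genes and these lists were chosen with earlier results of these data known. SQSTM1 and MAFG are in both pathway lists, and SLC3A2 is in the wider and ATF4 lists. Beyond the 9 genes and HMOX1, the rule named the 5 smallest p past the threshold per direction in each list and the 2 genes closest to each of the 9, some of which are not reported here. TKT, TXN, BLVRA, SLC3A2, ATF4, HNRNPA3, CUL3, RBX1, DPP3, PALB2, PGAM5 and the small MAF genes fall outside this rule and were named after their values were seen. Coordinates and exon overlaps came from GENCODE 44 (Ensembl 110, GRCh38), which held 99.8% of the 61498 identifiers, and promoter windows came from RefSeq.

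Alternatives were RLE factors, library size only, no count filter or at least 20 counts, posterior mean counts, no mitochondrial genes, a replicate block, each library left out, DESeq2 1.42.0, and limma 3.58.1 on log2(TPM + 1), log2(TPM + 0.1) and log2(TPM + 1) with no filter. The scripts were tested on simulated data.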

Additional observations from a re-analysis of the deposited data

How the results depend on the processing

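Of 15 alternatives, the 12 based on counts kept NQO1 and GCLM past the threshold. With limma on the authors' TPM (pseudocount 1, pseudocount 0.1, and pseudocount 1 with no filter), the 9 genes had 0, 0 and 0 calls (3 at an unadjusted p under 0.05 in each, 4 calls by DESeq2). Log2 values there were 0.80, 0.81 and 0.80 for NQO1, 0.43, 0.44 and 0.43 for GCLM, 0.27, 0.27 and 0.27 for KEAP1, 0.23, 0.23 and 0.23 for TXNRD1, 0.18, 0.18 and 0.18 for BACH1, -0.060, -0.061 and -0.060 for NFE2L2 and -6.0e-04, -5.0e-04 and -6.0e-04 for SRXN1. The limma tests called 14, 15 and 0 genes higher and 33, 34 and 0 lower in the whole table. Wider targets went from 6 higher and 3 lower to 1, 1 and 0 higher and 0, 0 and 0 lower. Regulators and partners went from 2 higher and 3 lower to 0, 0 and 0 in both directions, and ATF4 targets from 4 lower to 2, 2 and 0.

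BACH1 was also not called with library size only (0.17, adjusted p = 0.081) or DESeq2 (0.22). DESeq2 called 1 regulator or partner and 2 ATF4 targets lower and 589 genes higher and 479 lower in all, against 1012 and 1033 by edgeR. The regulators and partners had 4 higher calls with no count filter and 4 with posterior mean counts. SRXN1 was -0.014 with library size only.

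The labels give both groups the same replicate numbers without saying whether same-numbered libraries are paired. Deviations of same-numbered libraries from their group means correlated at 0.0047 over all genes tested. This value includes genes with few counts, where counting error is large, so it cannot decide whether same-numbered libraries share a culture or preparation. With the replicate block, 855 genes were higher and 886 lower, and BACH1 (0.21, adjusted p = 0.0619) was the only one of the 9 genes whose call changed.

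When each library was left out in turn, with the lone library of a condition assumed to vary like the others, the 9 genes had 2 to 4 calls, the 2 (NQO1 and GCLM) without untreated replicate 1. The ranges were 0.64 to 0.81 for NQO1, 0.60 to 0.81 for GCLM, 0.26 to 0.43 for KEAP1, 0.22 to 0.33 for TXNRD1, 0.18 to 0.24 for BACH1, 0.046 to 0.24 for NFE2L2, and -0.065 to 0.13 for SRXN1, which was below 0 without untreated replicate 2 or hemin replicate 1. Regulators and partners had 2 to 4 higher calls (4 without hemin replicate 2) and 0 to 3 lower calls (1 without untreated replicate 2, 0 without hemin replicate 2). ATF4 targets had 2 to 3 lower calls (2 without untreated replicate 2 or hemin replicate 2). In the whole table, 469 to 934 genes were higher and 512 to 884 lower, the fewest without untreated replicate 1, followed by 537 and 532 without untreated replicate 2. The cause of these shifts was not tested.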
